A study of Mus musculus with 15 samples.

Results

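The genes described here are the G1 cyclins and the inhibitors of their cyclin-dependent kinases (CDKs), measured by RNA-seq in mouse embryonic stem cells (ESC) with and without knockdown (kd) of Smarcb1. They were chosen by symbol, as genes known to respond to Smarcb1 in tumour cells. All 10 were found among the 55228 genes listed in every library. Of these, 5 encode inhibitors (Cdkn1a, Cdkn1b, Cdkn2a, Cdkn2b and Cdkn2c) and 5 encode cyclins (Ccnd1, Ccnd2, Ccnd3, Ccne1 and Ccne2).

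All 15 libraries came from the ESC line 81K1, which is based on the OG2 line. In 81K1 an shRNA cassette directed against Smarcb1 sits in the Rosa26 locus and is transcribed when doxycycline is given, and every library goes back to 1 such clone. Knockdown cells received 1 µg of doxycycline per ml of medium each day for 48 h, 72 h or 240 h, while control (ctrl) cells of the same line were left without it and were sampled at 48 h and at 240 h. Cells of all 5 groups grew on gelatine in serum medium with LIF, and each group held 3 libraries. No untreated cells of 72 h were among the libraries, so the 72 h kd group was set against the 48 h ctrl group, and in that comparison culture time, knockdown and doxycycline cannot be told apart. Since every kd group received doxycycline and no ctrl group did, the drug and the knockdown cannot be told apart at 48 h or 240 h either. The labels do not say whether the replicates were separate cultures, so the p-values measure the spread between these libraries, which may be technical.

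Passage from G1 into S phase is driven by D-type cyclins, which bind Cdk4 and Cdk6, and by E-type cyclins, which bind Cdk2. These kinases phosphorylate the retinoblastoma protein and its relatives and so release E2F transcription factors. Inhibitors of the Ink4 family (products of Cdkn2a, Cdkn2b and Cdkn2c) bind Cdk4 and Cdk6, whereas the Cip/Kip inhibitors p21 (Cdkn1a) and p27 (Cdkn1b) bind cyclin and CDK complexes more broadly. Mouse ESC are known for a short G1 phase with high E-type cyclin and low levels of several inhibitors. Smarcb1 belongs to the core of BAF, a complex that remodels chromatin, and in Smarcb1-deficient tumour cells its return is known to raise p16Ink4a, a product of Cdkn2a, and to lower cyclin D1.

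Library totals lay between 11074998 and 14515300 reads. Smarcb1 itself was at 3.60 ± 0.29 FPKM (SD, n = 3) in the controls of 48 h and 3.42 ± 0.124 in those of 240 h, against 0.647 ± 0.161, 0.564 ± 0.0662 and 0.66 ± 0.0532 after 48 h, 72 h and 240 h of knockdown, which was 15.7 to 18.3% of the 48 h ctrl mean. FPKM are reads per kilobase of gene span, scaled to a fixed number of reads per library. The 7 ESC markers were at a summed 1553 to 2621 FPKM in every library, and the highest sums, 2523 to 2621, were those of 72 h kd. Dppa5a was called higher at 72 h, and Esrrb and Zfp42 were called lower at 240 h. The 5 neural progenitor markers summed to 7.44 to 8.70 FPKM in ctrl and 13.2 to 21.1 in kd libraries. Of these, Sox1 was called higher at all 3 times, while Nes changed by -0.43 at 48 h and -0.48 at 72 h on the log2 scale, neither called, and was called higher at 240 h. The 5 trophoblast markers summed to 7.78 to 9.85 in ctrl and, after 48 h, 72 h and 240 h of knockdown, to 5.90 to 6.39, 16.9 to 17.6 and 12.8 to 13.2. Fibroblast (8), primitive endoderm (6) and mesoderm (4) markers summed to 0.155 to 1.67 FPKM, and Postn and Lum had no read in either ctrl group. The primitive endoderm sum was 0.578 to 0.596 in 48 h ctrl. After 48 h and 72 h of knockdown it was 0.243 to 0.327 and 0.155 to 0.244. At 240 h it was 0.768 to 0.804 without and 0.564 to 0.694 with knockdown. The mesoderm sum, in the same order, was 0.466 to 0.496, 0.469 to 0.821, 0.217 to 0.429, 0.187 to 0.526 and 0.66 to 0.837. No primitive endoderm or mesoderm marker was tested in the comparisons of kd with ctrl. At 240 h the fibroblast sum was 0.888 to 1.01 without and 1.43 to 1.67 with knockdown, and of the 2 fibroblast markers tested at that time Col1a1 was called higher, while Thy1 changed by -0.43 (adjusted p = 0.0151) and was not called. Col1a1 reached the minimum mean of 0.5 FPKM for testing only in comparisons that held 240 h kd, and not in ctrl against ctrl. Of the trophoblast markers only Tfap2c was called, lower at 48 h and higher at 72 h and 240 h, and Eomes, the only other one tested in these comparisons, changed by -0.33 at 72 h and was not called. The part of these markers in the results below was not tested, and fewer cells of a type and less RNA per cell cannot be told apart in such libraries. Mitochondrial transcripts took 0.507 to 2.53% of the reads, the highest share being that of 48 h kd replicate 2.

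The D-type cyclin transcripts were lower in knockdown cells, Ccnd2 being called at 3 of 3 times, Ccnd1 at 72 h and 240 h and Ccnd3 at 72 h. Ccnd1, which encodes cyclin D1, was at 73.6%, 42.6% and 44.3% of control at 48 h, 72 h and 240 h, and Ccnd2, which encodes cyclin D2, at 62.1%, 21.5% and 56.6%. The inhibitor genes did not move as a block. Cdkn1a (p21) was 2.88-fold and Cdkn2b (p15Ink4b) 4.30-fold higher at 72 h, Cdkn2a was lower at 48 h and higher at 72 h, and Cdkn1b (p27) was lower at 240 h. Ccne2 (cyclin E2) was at 48.9% of control at 72 h and at 101% at 240 h, and Ccne1 (cyclin E1), which had the highest level per kilobase of exon among the 10, was not called in any comparison. The calls of Ccnd2 and Cdkn2a at 48 h and of Ccnd3 at 72 h were each lost under at least 1 of the alternative settings tried.

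Differences were tested with limma on log2(FPKM + 0.1), and a gene was called when its adjusted p was below 0.05 and its absolute log2 fold change above 0.58, the limits the study set. Fold changes from this fit are on the log2(FPKM + 0.1) scale, which understates those of low genes. FPKM was computed over whole gene spans, and 4 members (Cdkn2a, Cdkn2b, Cdkn2c and Ccnd2) fell under the minimum mean of 0.5 FPKM in the comparisons of kd with ctrl. Their reads were recovered from the FPKM and tested with limma voom, a fit referred to below as the recovered reads.

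At 48 h none of the 6 members tested on log2 FPKM was called, where 3.99% of 11420 genes were, although 4 of the 6 had an adjusted and an unadjusted p below 0.05 with a change under the fold limit. On recovered reads 2 of 10 members were called, both lower, against 9.22% of all genes. At 72 h 1 member was called higher (8.23% of all genes were) and 3 lower (5.3%), together 4 of 6 against 13.5% of all genes. Recovered reads gave 3 of 10 higher (12.4%) and 4 lower (10.2%), together 7 against 22.6%. At 240 h 2 of 6 members were called, both lower, against 8.91%, and on recovered reads 1 of 10 was higher and 3 were lower, against 18% of all genes. Cdkn2b, 1 of the higher members at 72 h and the higher one at 240 h, passed the minimum mean of 10 reads only through its kd libraries. When the untreated cells of 240 h stood in for those of 48 h, 72 h kd again gave 4 calls on log2 FPKM and 7 on recovered reads. The 48 h and 72 h comparisons share their control libraries.

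**Figure D1:**
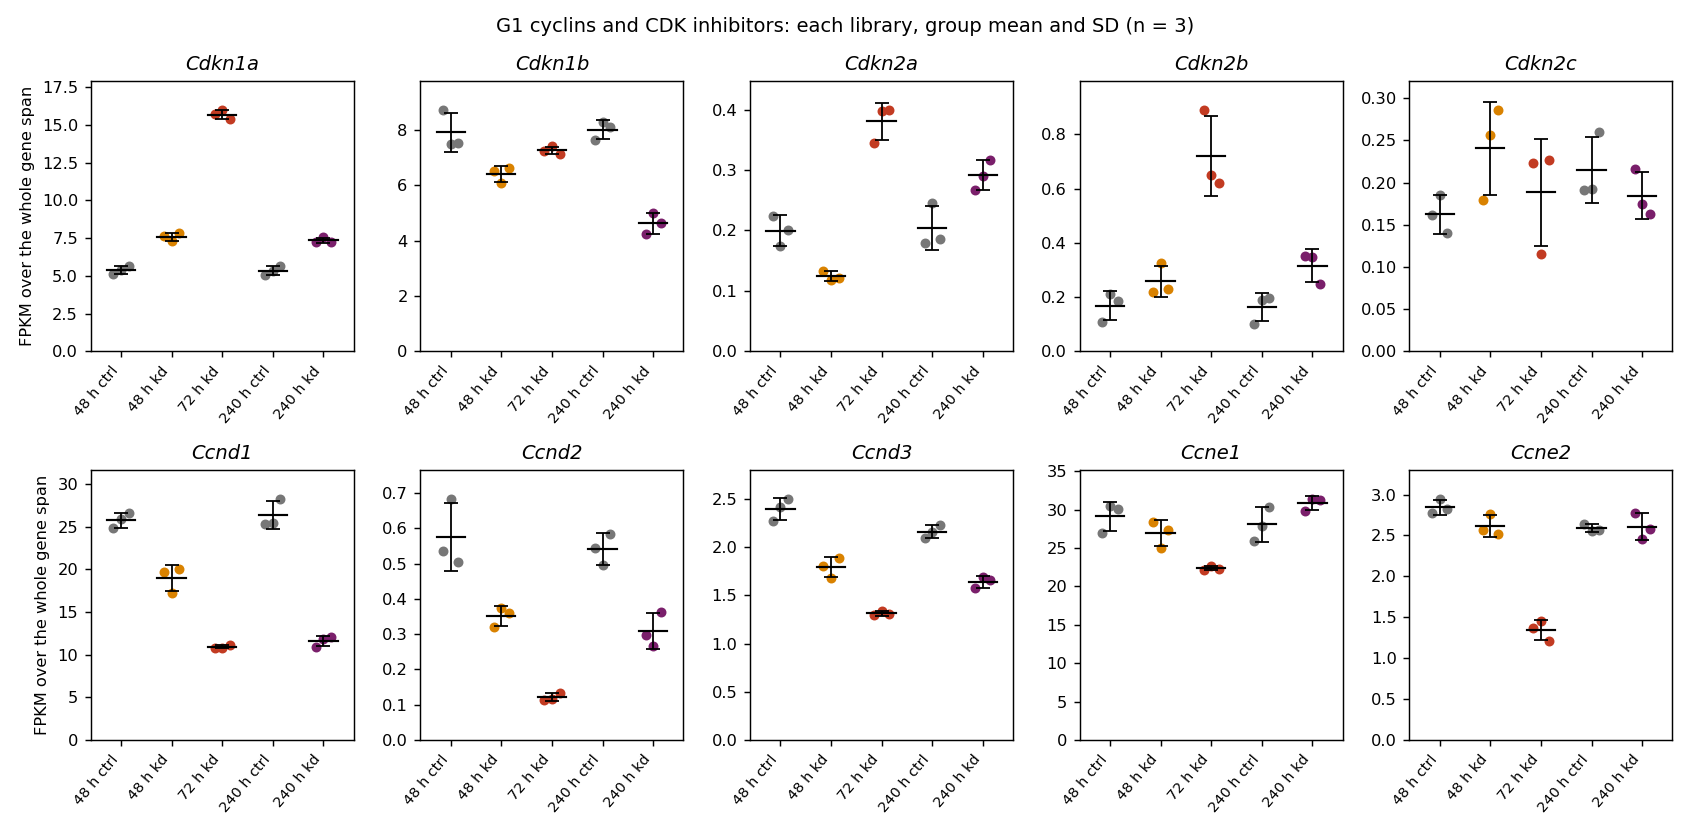
FPKM over the whole gene span (y axis, from 0, a scale of its own for each gene) of the 10 genes in the 5 groups (x axis). Each point is a library, the bar is the mean of 3 and the whisker its SD; Cdkn1a and Cdkn2b peak in 72 h kd, where Ccnd1, Ccnd2, Ccnd3 and Ccne2 have their lowest mean.

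The Cip/Kip inhibitor Cdkn1a (ENSMUSG00000023067.14, GRCm38 chr17:29090976-29100727, plus strand) encodes p21, an inhibitor known as a target of p53. Its FPKM in the controls was 5.15, 5.37 and 5.65 at 48 h and 5.06, 5.33 and 5.64 at 240 h. In kd libraries it was 7.67, 7.31 and 7.82 at 48 h, 15.7, 16.0 and 15.4 at 72 h, and 7.27, 7.54 and 7.26 at 240 h. All 9 kd libraries lay above all 6 ctrl libraries, those of 72 h stood apart from the rest, and those of 48 h and 240 h overlapped. The rise at 72 h was 1.52 on the log2 scale (SE 0.04, adjusted p = 2.09e-05), or 2.88-fold. The change at 48 h was 0.49 (SE 0.05, adjusted p = 0.00413) and likewise under the fold limit at 240 h, 0.45 (SE 0.05, adjusted p = 0.00148), so that neither was called. The effects at 240 h and 48 h differed by -0.03 on the log2 scale (95% interval -0.19 to 0.12, adjusted p = 0.792). Within the knockdown, Cdkn1a rose from 48 h to 72 h by 1.04 (adjusted p = 4.94e-04) and fell from 72 h to 240 h by 1.08 (adjusted p = 1.97e-05).

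RefSeq (GRCm38.p6) gives Cdkn1a a pair of transcription starts. The promoter windows, each 250 bases before and 50 after a start, are printed because this gene had the largest called rise on the FPKM scale. Capitals mark matches on either strand to 4 kinds of short word. The GC box was searched as GGGCGG. The CCAAT box was searched by its own letters. The TATA box was searched as TATAAA. An E2F word was any of TTTGGCGC, TTTCCCGC, TTTCGCGC and TTTGCCGC. Of 32851 promoter windows of the same length, 35.7% held the GC box, 37.4% the CCAAT box, 13.6% the TATA box and 2.27% at least 1 of the 4 E2F words.
Cdkn1a, first start, chr17:29090729-29091028, plus strand: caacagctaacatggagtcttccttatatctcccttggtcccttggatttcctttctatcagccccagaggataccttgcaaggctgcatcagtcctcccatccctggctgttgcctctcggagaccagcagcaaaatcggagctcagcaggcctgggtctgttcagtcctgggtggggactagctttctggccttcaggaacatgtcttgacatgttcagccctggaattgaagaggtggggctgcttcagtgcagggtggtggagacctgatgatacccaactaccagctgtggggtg
Cdkn1a, second start, chr17:29093519-29093818, plus strand: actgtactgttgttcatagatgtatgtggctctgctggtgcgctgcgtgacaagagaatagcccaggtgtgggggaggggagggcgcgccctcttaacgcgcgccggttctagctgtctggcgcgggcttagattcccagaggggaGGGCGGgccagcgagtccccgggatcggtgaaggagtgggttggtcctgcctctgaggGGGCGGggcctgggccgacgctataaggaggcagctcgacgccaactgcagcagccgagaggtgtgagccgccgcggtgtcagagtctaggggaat
The window of the first start held none of these words, and that of the second start held 2 GC boxes and no other. The second window lies inside 1700023B13Rik (chr17:29093416-29094461), which shares 1046 bases with Cdkn1a and carried 1 to 16 reads per library, 0.656% of the Cdkn1a reads.

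Cdkn1b (ENSMUSG00000003031.14, chr6:134920401-134925513, plus strand) encodes p27, an inhibitor of cyclin E and Cdk2 complexes that holds cells in quiescence. Its FPKM in the controls was 8.73, 7.50 and 7.53 at 48 h and 7.64, 8.29 and 8.11 at 240 h. In kd libraries it was 6.52, 6.09 and 6.64 at 48 h, 7.23, 7.41 and 7.14 at 72 h and 4.24, 5.00 and 4.63 at 240 h. The 240 h kd libraries were the lowest 3 of the 15, and no kd library reached a ctrl library. Cdkn1b was called at 240 h, where it fell by 0.78 on the log2 scale (SE 0.07, adjusted p = 7.68e-04), to 58.1% of control. At 48 h the log2 fold change was -0.30 (adjusted p = 0.0492) and at 72 h -0.12 (adjusted p = 0.17), neither of them called. The kd effect at 240 h differed from that at 48 h by -0.49 (SE 0.10, adjusted p = 0.0123), a difference under the fold limit. From 72 h to 240 h of knockdown Cdkn1b fell by 0.64 (adjusted p = 4.63e-04), a call that was lost when the pseudocount was 1 (-0.56) and when values were rescaled to TPM (-0.56).

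Per kilobase of exon, p21 and p27 transcripts, without those of the third Cip/Kip gene Cdkn1c, summed to 23.7 ± 0.453 FPKM in the controls of 48 h and 23.7 ± 1.09 in those of 240 h, of which Cdkn1a made up 62.5% and 62.0%. After 48 h, 72 h and 240 h of knockdown the sum was 28.1 ± 1.04, 51.2 ± 0.998 and 25.4 ± 0.828. The Cdkn1a share was then 74.3%, 84.1% and 79.6%. At 240 h the pair's summed level in kd was 25.4 against 23.7 FPKM in ctrl, with more Cdkn1a and less Cdkn1b in it.

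Cdkn2a (ENSMUSG00000044303.6, chr4:89274471-89294653, minus strand) makes 2 products from separate first exons, p16Ink4a and p19Arf, which gene values cannot separate. The first of these inhibits Cdk4 and Cdk6, and the second stabilises p53. The span is 17.2 times as long as the exons, and at most 107 reads fell on it in any library. Reads numbered 62, 39 and 46 in the controls of 48 h and 45, 61 and 48 in those of 240 h. After knockdown they numbered 31, 28 and 27 at 48 h, 89, 99 and 107 at 72 h and 71, 85 and 87 at 240 h. Counts were lowest in 48 h kd and highest in 72 h kd, and neither group overlapped another, here or in FPKM. On recovered reads, which were scaled to library totals, Cdkn2a fell by 0.68 at 48 h (SE 0.19, adjusted p = 0.0191). At 72 h it rose by 0.91 (SE 0.15, adjusted p = 1.60e-05). The change at 240 h, 0.53 (SE 0.16, adjusted p = 0.0134), was not called, though leaving out 240 h ctrl replicate 2 (0.66) or 240 h kd replicate 1 (0.58) brought a call. The 48 h call was lost without 48 h kd replicate 3, 48 h ctrl replicate 1 or 48 h ctrl replicate 3 (adjusted p 0.0531 to 0.0743), and on log2 FPKM with no minimum (-0.42, adjusted p = 0.124). The effects at 240 h and 48 h differed by 1.21 (SE 0.24, adjusted p = 0.00163), and within the knockdown Cdkn2a rose by 1.60 from 48 h to 72 h (adjusted p = 1.64e-05).

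Cdkn2b (ENSMUSG00000073802.5, chr4:89306299-89311039, minus strand) lies 11645 bases beyond the 5′ end of Cdkn2a and encodes p15Ink4b, a Cdk4 and Cdk6 inhibitor known to respond to TGF-beta. It had 7, 11 and 10 reads in the controls of 48 h and 6, 11 and 12 in those of 240 h. After knockdown it had 12, 18 and 12 reads at 48 h, 54, 38 and 39 at 72 h and 22, 24 and 16 at 240 h. In each comparison the kd libraries lay above those of ctrl, by the widest margin at 72 h. Its ctrl means, 9.33 reads at 48 h and 9.67 at 240 h, were under the minimum of 10 reads, so that it was tested only because of its kd libraries. Cdkn2b rose by 2.10 at 72 h on recovered reads (SE 0.30, adjusted p = 1.30e-06), and of the 10 genes only Ccnd2 had a larger log2 change in that comparison. At 240 h it rose by 0.96 (SE 0.32, adjusted p = 0.0216), a call lost without 240 h ctrl replicate 1, 240 h kd replicate 1 or 240 h kd replicate 2 (log2 fold change 0.67 to 0.88, adjusted p 0.063 to 0.113) and on log2 FPKM with no minimum (adjusted p = 0.108). The 48 h value, 0.66 (95% interval -0.07 to 1.39, adjusted p = 0.175), was not called. With the minimum lowered to 5 reads, which Cdkn2b passed in every group by itself, it was again called at 72 h (2.11, adjusted p = 2.36e-06) and at 240 h (0.96, adjusted p = 0.0265) and not at 48 h. Between 72 h and 240 h of knockdown, where both groups passed 10 reads, it fell by 1.16 on recovered reads (SE 0.24, adjusted p = 9.53e-05).

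Promoter windows of Cdkn2a and Cdkn2b are shown next, because these neighbours both rose at 72 h. In Cdkn2a, the start nearer the 5′ end of the gene is that of p19Arf and the start further inside is that of p16Ink4a.
Cdkn2a, start at the 5′ end, chr4:89294570-89294869, minus strand: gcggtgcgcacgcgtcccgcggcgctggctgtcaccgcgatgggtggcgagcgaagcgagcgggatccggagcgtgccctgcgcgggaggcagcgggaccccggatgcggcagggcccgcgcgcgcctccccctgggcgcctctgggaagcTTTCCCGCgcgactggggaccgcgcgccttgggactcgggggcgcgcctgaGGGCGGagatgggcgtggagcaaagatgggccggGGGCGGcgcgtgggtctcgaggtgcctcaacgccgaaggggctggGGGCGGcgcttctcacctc
Cdkn2a, inner start, chr4:89282143-89282442, minus strand: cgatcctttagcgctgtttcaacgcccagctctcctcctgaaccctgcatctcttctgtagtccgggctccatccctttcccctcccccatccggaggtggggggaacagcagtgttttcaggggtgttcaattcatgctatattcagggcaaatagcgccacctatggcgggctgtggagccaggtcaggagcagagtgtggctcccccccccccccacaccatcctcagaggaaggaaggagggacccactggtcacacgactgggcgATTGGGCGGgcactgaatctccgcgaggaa
Cdkn2b, chr4:89310983-89311282, minus strand: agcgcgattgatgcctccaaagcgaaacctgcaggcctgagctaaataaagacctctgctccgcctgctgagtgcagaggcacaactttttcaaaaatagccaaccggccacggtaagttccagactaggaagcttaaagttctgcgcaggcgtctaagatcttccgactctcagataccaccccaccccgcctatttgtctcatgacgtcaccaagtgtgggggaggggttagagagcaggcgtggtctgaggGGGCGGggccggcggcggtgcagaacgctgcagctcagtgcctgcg
In capitals, as above, are 1 E2F word (TTTCCCGC) and 3 GC boxes in the first window, 1 GC box overlapping 1 CCAAT box (on the opposite strand) in the second, and 1 GC box in the third. G and C made up 77% of the first window, 60.3% of the second and 57.7% of the third. Over the 11 windows found for 7 of the members, this was the only E2F word, and the TATA box word was in none. A match of letters is a description and not a tested binding site.

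Cdkn2c (ENSMUSG00000028551.14, chr4:109660876-109667189, minus strand) encodes p18Ink4c. It had 9 to 21 reads in every library, and its kd and ctrl libraries overlapped in each comparison. On recovered reads its log2 fold change was 0.53 at 48 h (95% interval -0.10 to 1.16, adjusted p = 0.201), 0.16 at 72 h (-0.49 to 0.81, adjusted p = 0.679) and -0.22 at 240 h (-0.80 to 0.36, adjusted p = 0.554). Cdkn2c was not called in any of these comparisons, and at this depth its intervals were wide. The summed level of Cdkn2a, Cdkn2b and Cdkn2c per kilobase of exon, which leaves out the fourth Ink4 gene Cdkn2d, was 4.40 ± 0.228 FPKM in the controls of 48 h and 4.56 ± 0.723 in those of 240 h, and 3.58 ± 0.146, 9.45 ± 0.108 and 6.53 ± 0.197 after 48 h, 72 h and 240 h of knockdown. Cdkn2a supplied 59.9 to 78.1% of it as group means, and this sum was below that of Cdkn1a and Cdkn1b in every group.

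**Figure D2:**
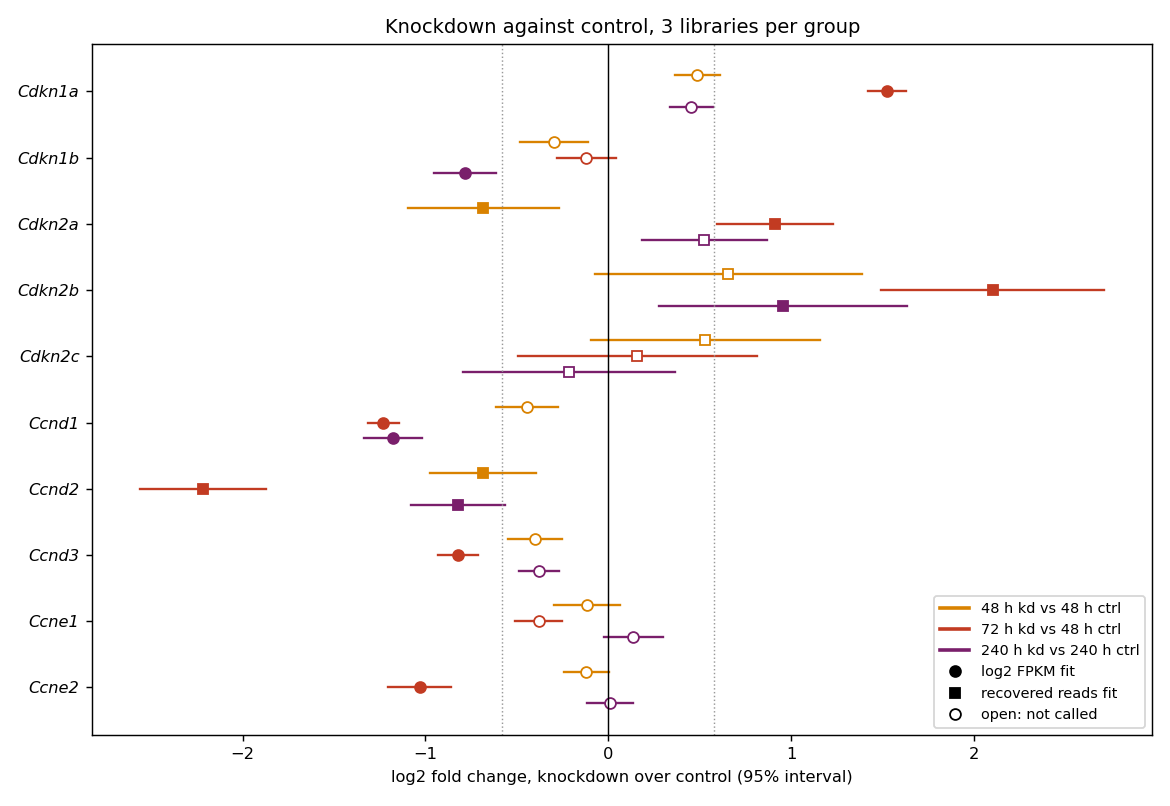
Log2 fold change of kd over ctrl (x axis) with its 95% interval for each gene (y axis) at 48 h, 72 h (against 48 h ctrl) and 240 h, 3 libraries per group. Circles are the log2 FPKM fit and squares the recovered reads fit of the 4 low genes; filled points were called and dotted lines mark the fold limit of 0.58. The D-type cyclins lie left of 0 throughout, and Cdkn2a lies left of 0 at 48 h and right of it at 72 h.

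Ccnd1 (ENSMUSG00000070348.5, chr7:144929931-144939925, minus strand) encodes cyclin D1, which links growth factor signals to Cdk4 and Cdk6. Its FPKM in the controls was 24.8, 25.9 and 26.6 at 48 h and 25.4, 25.4 and 28.3 at 240 h. After knockdown it was 19.7, 17.3 and 20.0 at 48 h, 10.8, 10.8 and 11.1 at 72 h and 10.9, 11.9 and 12.1 at 240 h. The kd libraries lay below all ctrl libraries, and the 72 h and 240 h kd libraries overlapped. Ccnd1 fell by 1.23 at 72 h (SE 0.03, adjusted p = 2.26e-05) and fell by 1.18 at 240 h (SE 0.06, adjusted p = 1.71e-04). The log2 fold change of -0.44 at 48 h (SE 0.07, adjusted p = 0.0129) was under the fold limit. The effect at 240 h differed from that at 48 h by -0.73, which was called (SE 0.10, adjusted p = 8.51e-04). From 48 h to 72 h of knockdown Ccnd1 fell by 0.79 (adjusted p = 0.00144), and from 72 h to 240 h it differed by 0.09 (95% interval -0.03 to 0.20, adjusted p = 0.154). Of its span, 1771 bases (17.7%) are shared with LTO1, a gene on the opposite strand with 685 to 1637 reads per library. The sources used here do not say that counting took account of strand, so reads in the shared stretch cannot be assigned to either gene.

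Ccnd2 (ENSMUSG00000000184.12, chr6:127125162-127152193, minus strand) encodes cyclin D2. Its reads numbered 199, 205 and 154 in the controls of 48 h and 183, 165 and 202 in those of 240 h. After knockdown there were 100, 119 and 108 at 48 h, 39, 39 and 48 at 72 h and 106, 104 and 134 at 240 h. Each kd group lay below both ctrl groups, and that of 72 h lay below the other kd groups. On recovered reads Ccnd2 fell by 0.69 at 48 h (SE 0.13, adjusted p = 0.00245). It fell by 2.22 at 72 h (SE 0.17, adjusted p = 4.06e-11) and fell by 0.82 at 240 h (SE 0.12, adjusted p = 2.77e-05). The 48 h call was lost without 48 h ctrl replicate 2 (-0.56) and on log2 FPKM with no minimum (-0.57, adjusted p = 0.0816). Ccnd2 rose again by 1.33 from 72 h to 240 h of knockdown (adjusted p = 8.89e-08), and its effects at 240 h and 48 h differed by -0.13 (95% interval -0.53 to 0.26, adjusted p = 0.666). Gm43126 and 9330179D12Rik, both antisense, share 994 and 2805 bases with it and had reads equal to 15.8% and 6.72% of its own.

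Ccnd3 (ENSMUSG00000034165.16, chr17:47505051-47599691, plus strand) encodes cyclin D3. FPKM in the controls was 2.27, 2.41 and 2.50 at 48 h and 2.09, 2.16 and 2.23 at 240 h. After knockdown it was 1.81, 1.68 and 1.89 at 48 h, 1.29, 1.34 and 1.31 at 72 h and 1.57, 1.69 and 1.66 at 240 h. In none of the 3 comparisons did kd and ctrl libraries overlap. Ccnd3 fell by 0.82 at 72 h (SE 0.04, adjusted p = 9.45e-05), or by 0.55 with a pseudocount of 1, which was under the fold limit. It changed by -0.40 at 48 h (adjusted p = 0.0114) and -0.38 at 240 h (adjusted p = 0.0022), neither of them called. The last 361 bases of Ccnd3 are also those of Bysl, a gene on the opposite strand with 1538 to 2483 reads per library, against 1565 to 2951 for Ccnd3.

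Per kilobase of exon, the reads of the D-type cyclin genes, introns not removed, summed to 82.2 ± 3.10 FPKM in the controls of 48 h and 80.8 ± 4.32 in those of 240 h. They summed to 60.6 ± 4.23, 37.7 ± 0.42 and 43.2 ± 2.04 after 48 h, 72 h and 240 h of knockdown. Ccnd1 was the largest part in every group, from 57.0% in 240 h kd to 69.2% in 240 h ctrl, and Ccnd2 made up 0.923 to 2.05%. The Ccnd3 share was 28.9% in 240 h ctrl and 41.0% in 240 h kd.

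**Figure D3:**
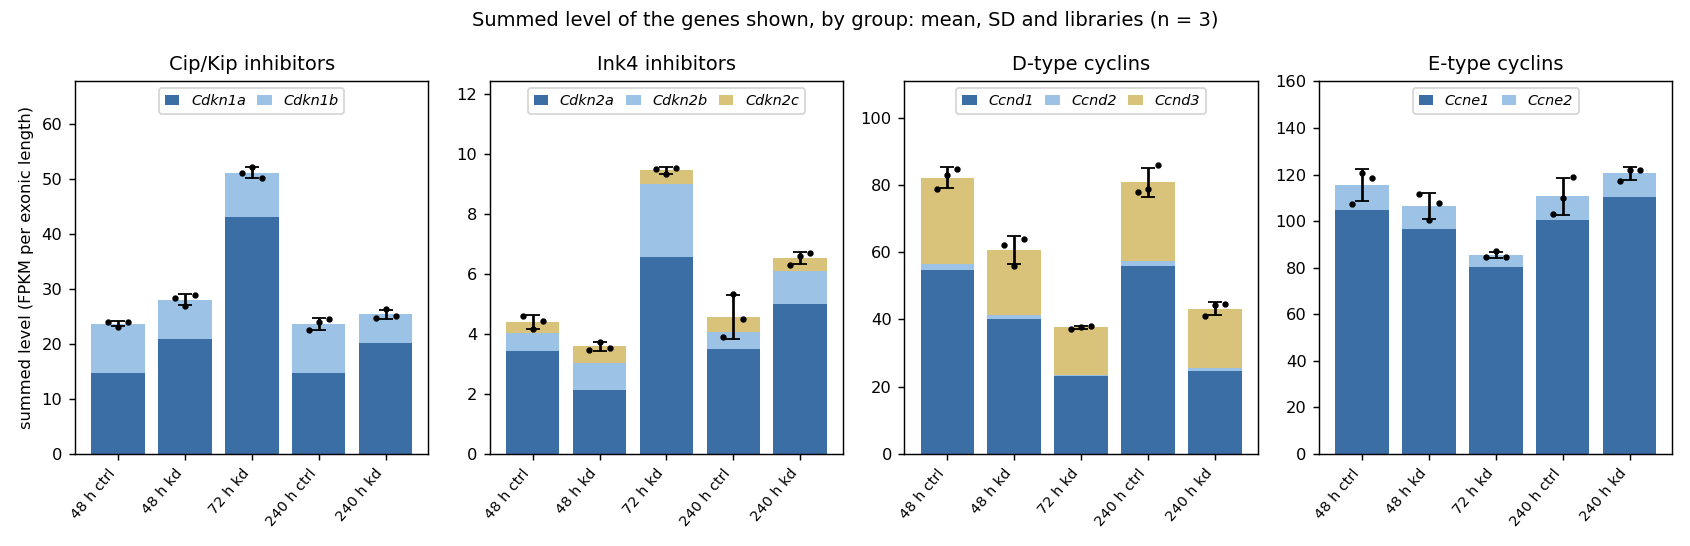
Summed level of the described genes of each family in FPKM per kilobase of exon (y axis, from 0, a scale of its own for each family; Cdkn1c and Cdkn2d are not in the sums) in the 5 groups. Stacked bars are group means by gene, points are the sums of the 3 libraries and whiskers their SD. D-type cyclins summed to 82.2 in the 48 h controls and 37.7 after 72 h of knockdown, Cdkn1a and Cdkn1b to 23.7 and 51.2, and Cdkn2a, Cdkn2b and Cdkn2c to 4.40 and 9.45.

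Of the E-type cyclins, Ccne1 (ENSMUSG00000002068.16, chr7:38097984-38107534, minus strand) had the highest level per kilobase of exon among the 10 genes in every group, 80.2 to 110.5 FPKM as group means. Over the whole span it had 29.1 ± 1.89 FPKM in the controls of 48 h and 28.1 ± 2.25 in those of 240 h, and 26.9 ± 1.70, 22.4 ± 0.282 and 30.8 ± 0.913 after 48 h, 72 h and 240 h of knockdown. Its 3 libraries of 72 h kd were the lowest, and in the order of the remaining means each group overlapped the next. At 72 h the log2 fold change was -0.38 (SE 0.05, adjusted p = 0.00198), under the fold limit. At 48 h it was -0.12 (adjusted p = 0.329) and at 240 h 0.14 (adjusted p = 0.161), and from 72 h to 240 h of knockdown it was 0.46 (adjusted p = 1.30e-04), not called either.

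Ccne2 (ENSMUSG00000028212.16, chr4:11191351-11204779, plus strand) had 2.77, 2.95 and 2.82 FPKM in the controls of 48 h and 2.64, 2.55 and 2.57 in those of 240 h. After knockdown it had 2.57, 2.76 and 2.52 at 48 h, 1.37, 1.45 and 1.21 at 72 h and 2.78, 2.46 and 2.58 at 240 h. The 72 h kd libraries stood below all others, kd and ctrl overlapped at 240 h, and at 48 h they came close without overlapping. Ccne2 fell by 1.03 at 72 h (SE 0.07, adjusted p = 1.82e-04), while its log2 fold change was -0.12 at 48 h (95% interval -0.24 to 0.01, adjusted p = 0.171) and 0.01 at 240 h (-0.12 to 0.14, adjusted p = 0.908). Within the knockdown it fell by 0.91 from 48 h to 72 h (adjusted p = 0.00145) and rose by 0.91 from 72 h to 240 h (adjusted p = 3.09e-04). Ints8, on the opposite strand, covers 5622 bases (41.9%) of its span and had 357% of its reads. As for Ccnd1 and LTO1, reads in the shared stretch cannot be assigned to either gene. The part of Ints8 in the Ccne2 values was not tested. E-type cyclin reads per kilobase of exon summed to 115.5 ± 7.08 FPKM in the controls of 48 h and 110.6 ± 7.92 in those of 240 h. They summed to 106.5 ± 5.68, 85.4 ± 1.37 and 120.5 ± 2.69 after 48 h, 72 h and 240 h of knockdown.

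The untreated groups served to show how far the genes moved with culture time alone. Between 240 h ctrl and 48 h ctrl, none of 7 members was called on log2 FPKM (0.475% of all genes were) and none of 9 on recovered reads (1.36%). In both fits 2 of them, Ccnd3 and Ccne2, had an unadjusted p below 0.05, with log2 fold changes of -0.14 (adjusted p = 0.14) and -0.13 (adjusted p = 0.102). Cdkn1a differed by -0.01 (95% interval -0.15 to 0.13) and Ccnd1 by 0.03 (-0.11 to 0.17). The changes were 0.02 for Cdkn1b, 0.0046 for Cdkn2a, -0.07 for Ccnd2 and -0.06 for Ccne1. Cdkn2c differed by 0.38 (-0.21 to 0.98), and Cdkn2b, under 10 reads on average in these libraries, was not tested.

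Within the knockdown, 72 h kd against 48 h kd gave 3 calls among 6 members (1 higher, 2 lower) where 7.45% of all genes were called, and 6 among 10 on recovered reads (3 higher, 3 lower) against 13%. The higher genes were Cdkn1a, Cdkn2a and Cdkn2b and the lower ones Ccnd1, Ccnd2 and Ccne2, with changes on recovered reads of 1.45 for Cdkn2b (adjusted p = 7.46e-04) and -1.53 for Ccnd2 (adjusted p = 9.82e-06). Not called were Cdkn1b (0.18, adjusted p = 0.03), Cdkn2c (-0.37, adjusted p = 0.368), Ccnd3 (-0.42, adjusted p = 0.00366) and Ccne1 (-0.26, adjusted p = 0.0166). From 72 h to 240 h, Cdkn2b passed the FPKM minimum only through 72 h kd (0.719 FPKM on average, against 0.316 in 240 h kd) and is left out of the count on log2 FPKM. Of the other 6 members tested, 1 was called higher and 2 lower, where 15.7% of all genes were called, and on recovered reads 5 of 10 were called (2 higher, 3 lower) against 25.4%. Here Ccnd2 and Ccne2 rose and Cdkn1a, Cdkn1b and Cdkn2b fell. Ccnd1, low at both times, was not called, nor were Cdkn2a (-0.38, adjusted p = 0.0139), Cdkn2c (0.01, adjusted p = 0.984) and Ccnd3 (0.30, adjusted p = 0.00143). The test of the difference between the kd effects at 240 h and 48 h called 1 of 6 members (Ccnd1) against 5.82% of all genes, and 2 of 10 on recovered reads (Ccnd1 and Cdkn2a) against 10.4%. The difference was 0.02 for Ccnd3 (adjusted p = 0.871), 0.25 for Ccne1 (adjusted p = 0.123) and 0.13 for Ccne2 (adjusted p = 0.271). On recovered reads it was 0.30 for Cdkn2b (95% interval -0.68 to 1.28) and -0.75 for Cdkn2c (-1.54 to 0.05).

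Another 45 genes were listed for the G1/S transition. On log2 FPKM, 3 of 38 tested were lower and none higher at 48 h, where 3.99% of all genes were called in either direction. At 72 h 5 of 39 were lower and none higher, where 5.3% of all genes were called lower and 8.23% higher. At 240 h 2 of 38 were lower and none higher, where 8.91% of all genes were called in either direction. Their median log2 fold changes were -0.16, -0.15 and -0.09, beside 0.01, 0.01 and -0.00 over all genes tested. On recovered reads, where all 45 passed the minimum, none of the kinase genes Cdk2, Cdk4 and Cdk6, the phosphatase gene Cdc25a and the 9 genes for cyclin and inhibitor turnover was called in these comparisons; on log2 FPKM 3 of the first 4 and 6 of the 9 were tested, with no call. Cdkn1c, which encodes the third Cip/Kip inhibitor p57, was at 4.26 ± 0.258 FPKM in the controls of 48 h and at 2.41 ± 0.398 and 1.26 ± 0.29 after 48 h and 72 h of knockdown. It fell by 0.80 at 48 h (adjusted p = 0.0111) and fell by 1.71 at 72 h (adjusted p = 6.31e-04). At 240 h it was at 3.78 ± 0.487 FPKM in ctrl and 2.80 ± 0.438 in kd and was not called. The 48 h call was lost without 48 h ctrl replicate 2 or replicate 3 (adjusted p 0.0525 and 0.0505) and with the replicate number as a block (adjusted p = 0.0524).

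E2f2, an activating E2F factor, fell at each time, by 0.74 at 48 h (adjusted p = 0.00465), 1.04 at 72 h (adjusted p = 1.31e-04) and 1.21 at 240 h (adjusted p = 3.58e-04). E2f8, a repressing E2F factor, fell by 0.87 at 72 h (adjusted p = 5.31e-05). Among the 16 E2F target genes of S phase entry, Pcna, the sliding clamp of DNA polymerase, fell by 0.76 at 48 h, 0.60 at 72 h and 0.59 at 240 h (adjusted p = 0.00328, 1.15e-04 and 0.00106), and Tyms, which makes thymidylate, by 0.66 at 72 h (adjusted p = 1.89e-04). Several of these changes lay near the fold limit. The E2f2 call at 48 h was lost with a pseudocount of 1 (-0.45) or with the replicate number as a block (adjusted p = 0.0516). The Tyms call was lost with a pseudocount of 1 (-0.55) or against 240 h ctrl (-0.45). The Pcna call at 72 h was lost with quantile normalization (-0.55) or against 240 h ctrl (-0.57). At 240 h the Pcna call was lost with a pseudocount of 1 (-0.58), quantile normalization (-0.55) or without 240 h ctrl replicate 2 (-0.57) or replicate 3 (-0.55). The other 14 target genes, the Mcm genes among them, were not called in these comparisons. On recovered reads 2 of the 45 were called higher at 72 h, where 12.4% of all genes were, and 1 at 240 h, where 18% of all genes were called in either direction. Rb1, the retinoblastoma gene, rose by 0.68 at 72 h (adjusted p = 4.50e-10) and 0.77 at 240 h (adjusted p = 3.77e-08), and Cdkn3, a CDK-associated phosphatase gene, by 0.61 at 72 h (adjusted p = 4.16e-04). Within the knockdown, on the same reads, 2 of 45 were called from 48 h to 72 h (13% of all genes were), Cdkn3 higher (0.77) and Cdkn1c lower (-0.95). From 72 h to 240 h 5 of 45 were called (25.4% of all genes were). Cdkn1c (1.17) and the repressing E2F factors E2f7 (0.72) and E2f8 (0.67) were higher, and the activating factor E2f1 (-0.82) and Mybl2 (-0.65), a Myb family factor, were lower. The difference between the kd effects at 240 h and 48 h was called for Rb1 on recovered reads (0.60, adjusted p = 9.00e-05), 1 of 45 against 10.4% of all genes, and for none of 38 on log2 FPKM.

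**Figure D4:**
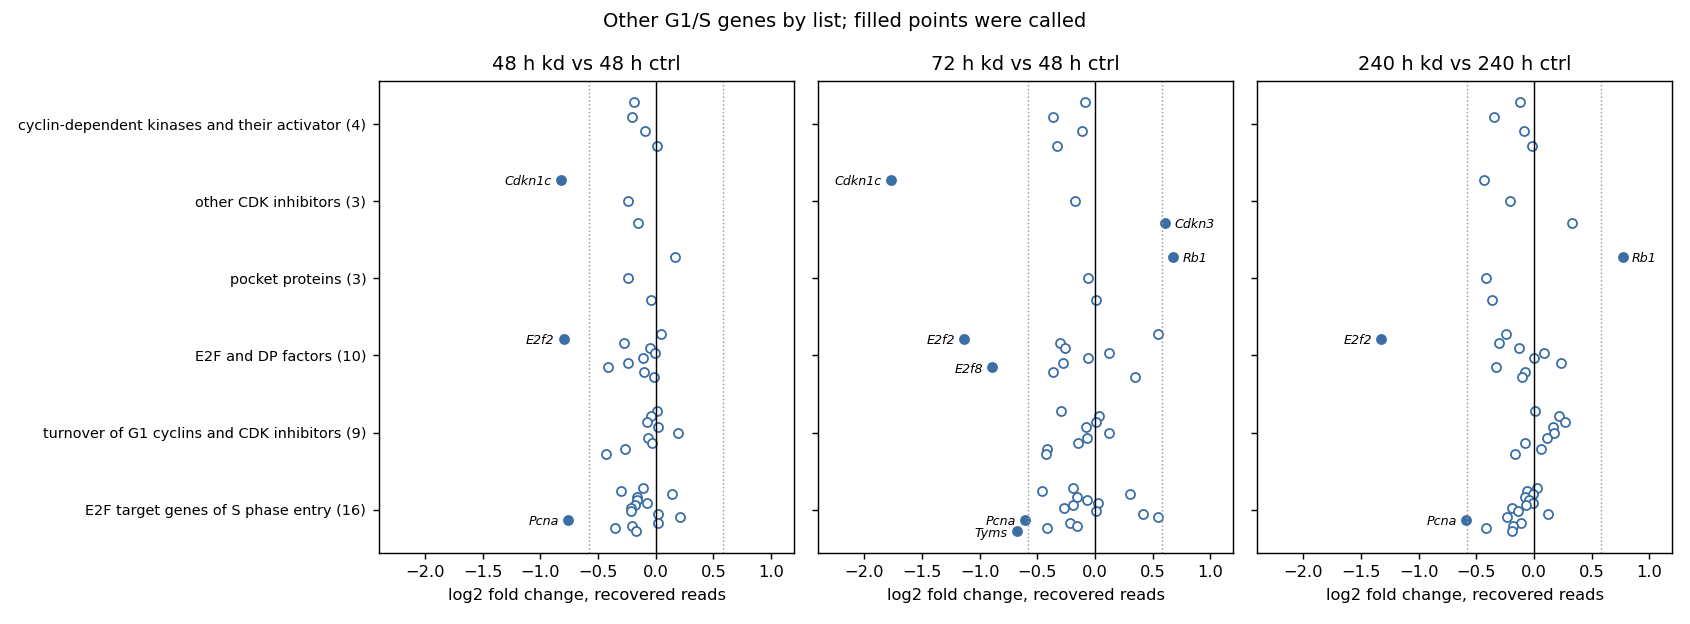
Log2 fold change on recovered reads (x axis) of the 45 other G1/S genes, grouped by list (y axis, number of genes in brackets), at 48 h, 72 h (against 48 h ctrl) and 240 h. Each point is a gene, filled and named where called, and dotted lines mark the fold limit of 0.58; E2f2 and Pcna are filled in all 3 panels and Rb1 in those of 72 h and 240 h.

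Ccnd1 and Cdkn1a were the cyclin and the inhibitor with the largest called change on log2 FPKM. Across the 15 libraries, the genes whose log2 FPKM followed that of Ccnd1 most closely were Fkbp10 (Pearson r 0.992), Mtss1 (0.987) and Ddx58 (0.986), out of 8905 named genes with at least 0.5 FPKM and 10 reads on average. Fkbp10 was at 6.87 and 6.62 FPKM in the controls of 48 h and 240 h, and at 4.70, 2.84 and 3.01 after 48 h, 72 h and 240 h of knockdown. Closest to Cdkn1a were Wbp2 (0.993), Renbp (0.985) and Ctsa (0.984), and Wbp2 was at 10.2, 9.62, 13.3, 23.9 and 12.6 FPKM in the same order. These correlations describe libraries that share 5 groups and carry no p-value.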

How the data were processed

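RNA-seq libraries of total RNA were made by the authors from 81K1 ESC and sequenced as single reads. The deposited files hold 1 FPKM value per gene and library. The processing notes of the authors name mm10 (GRCm38.p6), STAR 2.7.0c, DESeq2 1.30.0 and R 4.0.3, and the annotation behind the read counts is not given in the sources used here (a GENCODE release is named for assigning ChIP-seq peaks to genes). Each FPKM, multiplied by the gene span and the library total, gave whole reads for all values (tolerance 0.001), so the authors had divided by whole spans, introns included, and the summed gene reads exceeded the totals by 7.38 to 8.34%. Depth was 11074998 to 14515300 reads, which bounds the precision of low genes.

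Groups came from the sample titles. FPKM were compared on log2(FPKM + 0.1) with limma 3.58.1 (R 4.3.3, lmFit, eBayes with trend, two-sided) for every gene whose mean over the compared libraries reached 0.5 FPKM, with Benjamini-Hochberg adjustment over all genes tested and a call at adjusted p below 0.05 and absolute log2 fold change above 0.58. The difference of kd effects was the interaction contrast over 12 libraries. Recovered reads were tested with limma voom on library totals where a gene's mean reached 10 reads. The authors had tested counts with DESeq2. Here the log-scale test was kept as the main one because the deposited unit is FPKM, and the choice moves the number of calls. Levels per kilobase of exon used exonic lengths from GENCODE M21 (GRCm38), to which 53297 of 55228 genes (96.5%) matched. All reads recovered for the whole span of a gene entered these levels. Promoter windows came from RefSeq (GRCm38.p6). Fits were tested on simulated data. Python 3.11.15 with pandas 2.3.3 and matplotlib 3.10.9 made summaries and figures.

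All members are described in every comparison, with each other G1/S gene called in a comparison that involves the knockdown and the 3 genes most correlated with the cyclin and the inhibitor of largest called change on log2 FPKM. Members, gene lists and tests were chosen with earlier results of these data known, and no test was run over a list. Alternatives covered the pseudocount, the FPKM minimum, scaling, the replicate block, recovered reads and their minimum, the 72 h control, the fold limit and each library left out.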

Additional observations from a re-analysis of the deposited data

Results flagged for a closer look

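Set against controls of their own time, the effects of 240 h and of 48 h of knockdown were compared by the interaction test. On log2 FPKM it called Ccnd1, 1 of 6 members tested, where 5.82% of all genes were called, and on recovered reads Ccnd1 and Cdkn2a, 2 of 10, against 10.4%. For Cdkn2a the difference was 1.21 on the log2 scale of recovered reads (SE 0.24, adjusted p = 0.00163). Its kd libraries lay below ctrl at 48 h (27 to 31 against 39 to 62 reads) and above at 240 h (71 to 87 against 45 to 61), and the difference stayed between 1.11 and 1.35 with any of the 12 libraries left out. For Ccnd1 the difference was -0.73 (SE 0.10, adjusted p = 8.51e-04), between -0.80 and -0.68 with 1 library left out, and its kd libraries lay below ctrl at both times. In both cases the interaction was called at the limits used for single comparisons. With 10 genes examined in this way, Cdkn1b had an adjusted p of 0.0123 for a difference of -0.49, which is under the fold limit.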

How the results depend on the processing

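Over all alternatives 1144 results of single members were recomputed, of which 1115 kept their side of the limits, 14 lost a call and 15 gained one. A change of sign was counted as a reversal only where a call was involved or both unadjusted p were below 0.05, and none was found. Uncalled values near 0 did change sign, such as Ccne2 at 240 h (-0.04 to 0.05 with a library left out). Numbers of calls moved more, and the cause was not tested beyond what each setting itself changes. In the order 48 h, 72 h, 240 h, ctrl against ctrl, 72 h against 48 h kd, 240 h against 72 h kd and difference of effects, all genes called numbered 208, 745, 541, 27, 365, 882 and 333 with a pseudocount of 1, 208, 768, 453, 32, 407, 888 and 324 with a minimum of 2 FPKM, 1844, 6290, 3848, 391, 4081, 6820 and 1778 with no fold limit, 1485, 3642, 2998, 220, 2101, 4201 and 1708 on recovered reads, and 1498, 3615, 3003, 219, 2100, 4195 and 1731 on recovered reads with size factors. With no FPKM minimum 2500 (72 h), 1768 (240 h), 2841 (240 h against 72 h kd) and 1051 (difference of effects) genes were called. For ctrl against ctrl the count was 151 on TPM, 103 in 1 fit of all 15 libraries, 31 without a trend and 2 to 10 with a library left out (54 as reported). Members called numbered 2, 7, 4, 6 and 2 on recovered reads with either scaling (48 h, 72 h, 240 h, 72 h against 48 h kd and difference of effects), 7, 6 and 2 with no FPKM minimum (72 h, 72 h against 48 h kd and difference of effects), 4, 4, 6 and 2 with no fold limit (48 h, 240 h, 72 h against 48 h kd and difference of effects), and 2 in 240 h against 72 h kd (4, Cdkn2b among them, at the settings used) both with a pseudocount of 1 and with a minimum of 2 FPKM. Of the 2 members called at 48 h on recovered reads, 0 were called on log2 FPKM with no minimum and 1 to 2 with a library left out. Members called on recovered reads at 240 h numbered 3 to 5 with a library left out. Other G1/S genes called numbered 10, 26 and 14 with no fold limit at 48 h, 72 h and 240 h, and at 240 h 1 with a pseudocount of 1, a minimum of 2 FPKM or quantile normalization and 1 to 2 with a library left out. With 1 library left out, all genes called at 48 h numbered 343 to 447, at 72 h 1521 to 1607, at 240 h 943 to 1056, in 72 h against 48 h kd 724 to 922, in 240 h against 72 h kd 1744 to 1790 and in the difference of effects 586 to 691.

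Replicate numbers did not pair the libraries. Same-numbered libraries deviated together with r from -0.10 to 0.12, in no comparison was every r above 0.1, and at most 2 of 3 correlated best with their own number. With the replicate number as a block, 285 genes (456 without it) and 1 other G1/S gene (Pcna, with Cdkn1c and E2f2 lost) were called at 48 h and 0 in ctrl against ctrl, and the number of members called was the same in every comparison. In the recovered reads fit of the low members, leaving out libraries, the block, size factors, a minimum of 5 reads and the 240 h control for 72 h kd were alternatives chosen after seeing the data, as was that fit for the other G1/S genes, while the remaining ones were planned. Depth limited Cdkn2b and Cdkn2c, with at most 54 and 21 reads in any library.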
